A study of Homo sapiens with 6 samples.

Results

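The oligosaccharyltransferase (OST) is the enzyme of the endoplasmic reticulum (ER) membrane that places N-linked glycans on new proteins. Described here are 10 genes of its subunits, MAGT1, TUSC3, STT3A, STT3B, RPN1, RPN2, DDOST, DAD1, OSTC and OST4, taken by gene name from the 32985 genes of the table. Each name matched 1 gene, and 10 of the 10 passed the filter on low values, a mean of at least 1 FPKM over the 6 libraries. FPKM is the number of sequenced fragments of a gene scaled to its length and to the size of the library, so that it can be compared between genes. The lowest mean over the 6 libraries was 9.50 FPKM, in MAGT1.

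RNA-seq was performed on 8505C, an established human cell line of anaplastic thyroid cancer. There were 3 libraries of cells that received a control siRNA (siCtrl, genotype label WT) and 3 of cells that received an siRNA against NUF2 (siNUF2, genotype label NUF2 knockdown), a subunit of the NDC80 complex of the kinetochore, at 24 h. The comparison asked how the transcripts of these cells differed once NUF2 was knocked down. It rests on 1 cell line and 1 siRNA sequence for NUF2, and nothing in the labels says that the libraries of a group came from separate cultures, so that p-values measure only the spread between these libraries, which may be technical.

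The OST takes a finished glycan from its dolichol lipid carrier and moves it to asparagine residues of proteins that enter the ER. Human cells build an STT3A form, which sits beside the translocon and works while the chain is entering, and an STT3B form, which works on sites that the other form has missed. The STT3B form carries a thiol oxidoreductase subunit, either MAGT1 or its paralogue TUSC3, and MAGT1 has also been described as a magnesium transporter. In thyroid tissue a well-known client of the pathway is thyroglobulin, whose gene TG was at a mean of 0.0030 FPKM here.

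The total count per library lay between 61257859 and 69755291, and mitochondrial genes held 5.46% to 6.70% of it in siCtrl and 6.54% to 7.06% in siNUF2 libraries, the siNUF2 library being the higher within each of the 3 replicate numbers. The 10 most abundant genes held 6.66% to 7.52% in siCtrl and 7.62% to 7.87% in siNUF2 libraries, without overlap, and the part of these shares in the results was not tested. The targeted gene, NUF2, had a mean of 13.9 ± 1.41 FPKM in siCtrl and 1.71 ± 0.290 FPKM in siNUF2 libraries (SD, n = 3 each), which is 12.4% of control. Of 11725 genes tested with edgeR's quasi-likelihood test and Benjamini-Hochberg adjustment, 468 (3.99%) passed an adjusted p of 0.05, with 289 (2.46%) lower and 179 (1.53%) higher in siNUF2 cells. Over all these genes the log2 fold change had a median of 0.01. A block for the replicate number raised this count to 1705 (14.5%). Of the thyroid follicular markers matched, 1 of 6 reached 1 FPKM, namely NKX2-1 at 18.3 FPKM, and VIM was at 479 FPKM. Of the epithelial markers, 3 of 5 reached 1 FPKM (KRT8 at 88.4, KRT18 at 162 and KRT19 at 8.32 FPKM), while EPCAM was at 0.133 FPKM and CDH1 had 0 counts in the siCtrl and 4 to 10 counts in the siNUF2 libraries. The summed FPKM of the 3 immune markers was 3.48 to 7.40 in siCtrl and 4.74 to 6.29 in siNUF2 libraries, nearly all of it from CD68 (5.51 FPKM). PTPRC had 389 and 106 counts in library 1 of siCtrl and siNUF2 and at most 14 counts in the other 4 libraries. CD3E, at 0.026 FPKM, had 25 and 10 counts in these libraries 1 and 0 in the other 4. Of the endothelial markers, PECAM1 was at 0.307 FPKM and CDH5 at 1.16 FPKM. CDH5 had 921 and 1333 counts in library 2 of siCtrl and siNUF2 and 235 to 374 counts in the other 4 libraries.

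Among the subunits, 2 of 10 (20%) passed the test, both lower in siNUF2 cells, and 0 of 10 were higher. Of all genes tested, 3.99% passed, 2.46% as lower and 1.53% as higher. The fall of MAGT1 was known when the subunits were chosen, which raises their share. The 2 subunits were MAGT1 and RPN2, and they were again the ones called with the replicate block, where 7.91% of all genes tested were lower and 6.64% higher. The median log2 fold change of the 10 subunits was 0.03. The other 8 subunits had log2 fold changes between -0.18 and 0.18 with a median of 0.05, and 0 of them had an unadjusted p under 0.05 by edgeR's test without the block. DESeq2 and limma also called 0 of these 8, and with the replicate block 0 passed the adjusted threshold and 2 (STT3B and RPN1) had an unadjusted p under 0.05. In bulk RNA, fewer cells of a kind and less RNA per cell cannot be told apart.

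**Figure D1:**
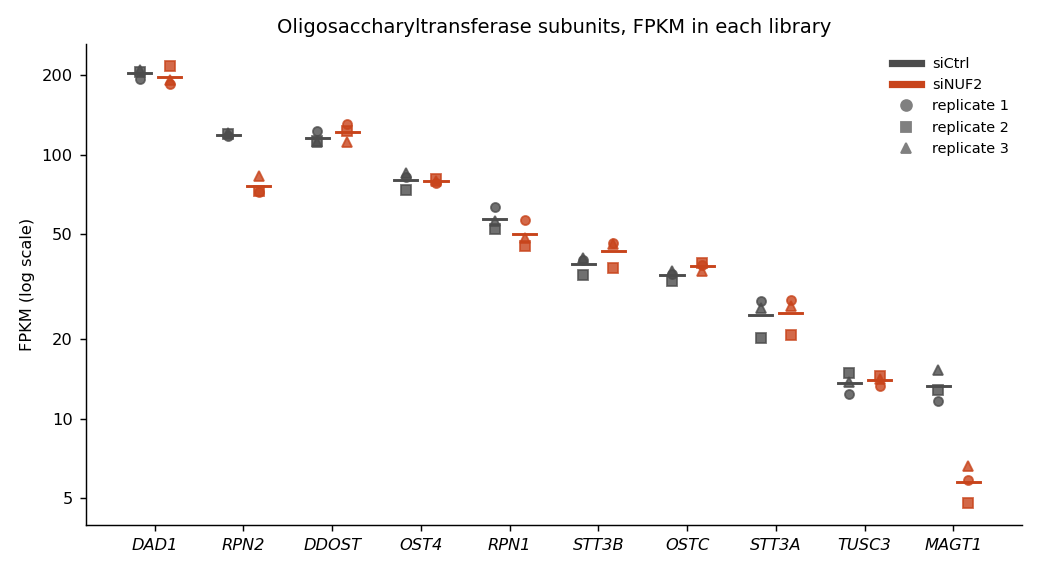
FPKM of the 10 subunits on a log scale, with 1 point per library (grey siCtrl, orange siNUF2, shape for the replicate number) and a bar at the mean of each group of 3. MAGT1 (11.7 to 15.2 against 4.80 to 6.60 FPKM) and RPN2 (117 to 121 against 72.3 to 83.1 FPKM) lie lower in siNUF2 libraries without overlap, while the points of 7 other genes overlap between the groups.

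MAGT1 (ENSG00000102158) encodes an oxidoreductase subunit of the STT3B form and lies on chromosome X of GRCh38 from 77825747 to 77895593, on the minus strand. Its level was 11.7, 12.8 and 15.2 FPKM in siCtrl libraries 1, 2 and 3. In siNUF2 libraries 1, 2 and 3 it was 5.85, 4.80 and 6.60 FPKM. The highest siNUF2 library was thus below the lowest siCtrl library, as was the case in this direction for 1567 of the 11725 genes tested (13.4%). The means were 13.3 ± 1.82 FPKM (SD, n = 3) and 5.75 ± 0.908 FPKM (SD, n = 3), so that siNUF2 cells held 43.4% of the control level. Between 2115 and 6210 counts per library stood behind these levels. The log2 fold change of the counts was -1.18 (SE, the standard error, 0.15, 95% interval -1.53 to -0.84, adjusted p = 0.00746 by edgeR). A log2 fold change this low or lower was found in 63 of the 11725 genes (0.537%). Leaving out each library in turn gave values from -1.30 to -1.07, and 6 of 6 of these fits passed the threshold.

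TUSC3 (ENSG00000104723), the paralogue that can take the same place in the STT3B form, lies on chromosome 8 from 15417215 to 15766649 on the plus strand and overlaps AC100850 on the opposite strand. Its level was 12.4, 14.9 and 13.7 FPKM in siCtrl libraries 1, 2 and 3, and 13.3, 14.5 and 14.1 FPKM in the siNUF2 libraries. All siNUF2 values lay inside the range of the siCtrl values. From 13.7 ± 1.26 to 14.0 ± 0.599 FPKM (SD, n = 3 each) the level was 102% of control, and the log2 fold change was 0.05 (SE 0.10, 95% interval -0.19 to 0.29, adjusted p = 0.855). The interval leaves room for a fall of 0.19 or a rise of 0.29 on the log2 scale. TUSC3 and MAGT1 share 683 of 1004 aligned coding bases (68.0%), and the longest run of bases that their canonical transcripts share is 16, against reads of 150 bases.

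In control cells the transcripts of the paralogues were about equally abundant, and in siNUF2 cells TUSC3 was the more abundant in every library. By FPKM, MAGT1 made up 48.5%, 46.2% and 52.6% of the sum of both genes in siCtrl libraries 1, 2 and 3. Its share in the siNUF2 libraries was 30.5%, 24.8% and 31.9%. These are 49.1% ± 3.24 and 29.1% ± 3.74 (SD, n = 3 each), with no overlap.

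The log2 ratio of MAGT1 to TUSC3 within a library, which does not depend on how the library is scaled, was -0.09, -0.22 and 0.15 in siCtrl and -1.19, -1.60 and -1.09 in siNUF2 libraries. It was lower by 1.24 on the log2 scale in siNUF2 cells (exact permutation test, two-sided, p = 0.1, the smallest value that 3 libraries against 3 can give). The sum of the paralogues was lower as well. The summed FPKM of both genes was 24.1, 27.8 and 29.0 in siCtrl and 19.2, 19.3 and 20.7 in siNUF2 libraries, without overlap. The means of this sum were 27.0 ± 2.54 and 19.7 ± 0.840 FPKM (SD, n = 3 each), 73.2% of control (exact permutation test, two-sided, p = 0.1). With levels computed per kilobase of the canonical transcript, a choice made after the data were seen, the sum was 75.3% of control.

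**Figure D2:**
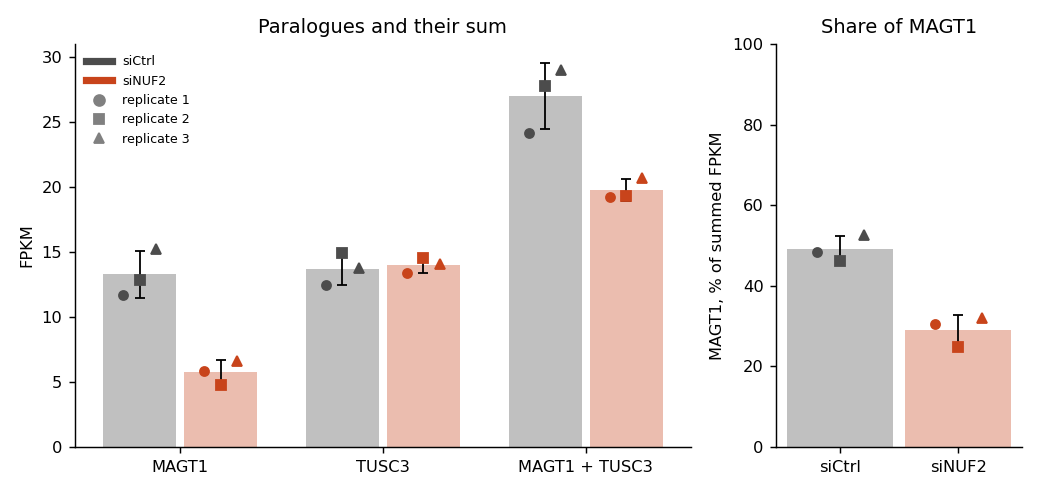
Left, FPKM of MAGT1, of TUSC3 and of their sum, with bars at the group mean, error bars of 1 SD (n = 3) and 1 point per library. Right, the share of MAGT1 in the sum in percent. The mean sum falls from 27.0 to 19.7 FPKM and the mean share from 49.1% to 29.1%, while the TUSC3 bars stand at 13.7 and 14.0 FPKM.

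Because MAGT1 or TUSC3 serves with STT3B, the summed level was also set against STT3B. The ratio of the summed FPKM to the STT3B FPKM was 0.605, 0.790 and 0.713 in siCtrl and 0.413, 0.519 and 0.452 in siNUF2 libraries. The groups did not overlap. The share, the sum and this ratio all contain the MAGT1 level, so they are no separate results beside its fall. Ratios to STT3B were not among the planned ones. The ratio of TUSC3 alone to STT3B was 0.358 ± 0.059 in siCtrl and 0.328 ± 0.054 in siNUF2 cells (SD, n = 3 each), with overlapping values. Within each replicate number this ratio was the lower in the siNUF2 library, and no test was run on it.

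The sequence of the NUF2 siRNA is given in the study's methods, and the 7-base word TATGGAA is the one that pairs with bases 2 to 8, the seed, of its antisense strand. A seed can pair with transcripts other than the target of an siRNA, as it does in a miRNA, and for this reason the word was counted in the transcripts of the subunits (GENCODE release 44, GRCh38, transcript strand only). The longest annotated 3′ UTR held it once in 3 of 10 subunits, MAGT1, TUSC3 and OST4, while the coding sequence held it once in MAGT1 and once in OSTC. The windows of 30 bases around the word are shown because they include the subunit with the largest fall and subunits that did not pass the test. The window of TUSC3 is not shown. Capitals mark the word, and each window is written 5′ to 3′ on the transcript strand.
MAGT1, 3′ UTR in exon 10 of 10, chrX:77828965-77828994, minus strand: ccagtgaacttTATGGAAcatttaatttag
MAGT1, coding sequence in exon 5 of 10, chrX:77856760-77856789, minus strand: cgaagaagtaaTATGGAAtttctctttaat
OST4, 3′ UTR in exon 3 of 3, chr2:27070557-27070586, minus strand: ttccttaatccTATGGAAcaagaagctgcc
OSTC, coding sequence in exon 3 of 4, chr4:108657457-108657486, plus strand: ggacaatatatTATGGAAggacttgcatcc

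In MAGT1 the word of the 3′ UTR begins at base 237 of its 3473 bases. The 3′ UTR of TUSC3, of 2482 bases, held 1 such word and that of OST4, of 294 bases, held 1. RPN2 held no such word in its 3′ UTR of 304 bases or in its coding sequence, and its 3′ UTR held the 6-base core ATGGAA at 2 positions. Of the 10173 genes tested that had a 3′ UTR of at least 50 bases, 16.1% held the word and 46.2% the core. The word was held by 58.8% of 284 genes that were lower and by 10.3% of 174 genes that were higher in siNUF2 cells. The core was held by 90.5% of these lower genes and by 41.4% of these higher genes. The median 3′ UTR was 1503 bases over all these genes, 2620.5 bases in the lower and 1719.5 bases in the higher genes. A match describes the letters of a transcript, and the part of the siRNA seed in the MAGT1 level was not tested.

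STT3A and STT3B encode the alternative catalytic subunits. STT3A (ENSG00000134910, chromosome 11 from 125591712 to 125623091, plus strand) was at 27.8, 20.2 and 26.2 FPKM in siCtrl and at 28.2, 20.7 and 26.8 FPKM in siNUF2 libraries 1, 2 and 3. Library 2 was the lowest in both groups, and the libraries of one number were nearly equal. The log2 fold change was 0.05 (SE 0.16, 95% interval -0.31 to 0.40, adjusted p = 0.920). In the file STT3A overlaps FEZ1 on the opposite strand.

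STT3B (ENSG00000163527, chromosome 3 from 31532638 to 31637616, plus strand) was at 39.8, 35.2 and 40.7 FPKM in siCtrl and at 46.5, 37.2 and 45.8 FPKM in siNUF2 libraries. Within each replicate number the siNUF2 library was the higher, and the groups overlapped because library 2 was low in both. Its log2 fold change was 0.18 (95% interval -0.08 to 0.44, adjusted p = 0.462), and with the replicate block the unadjusted p was 0.0258 and the adjusted p 0.111.

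The log2 ratio of STT3A to STT3B was -0.52, -0.80 and -0.63 in siCtrl libraries and -0.72, -0.85 and -0.77 in siNUF2 libraries. The ratio differed between the groups by -0.13, with overlapping values (exact permutation test, two-sided, p = 0.3). It was the lower in the siNUF2 library within each replicate number, a pairing that the permutation test did not use. Per length, STT3B was therefore the more abundant catalytic transcript in 6 of 6 libraries. STT3A and STT3B share 61.6% of their aligned coding bases.

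RPN1 and RPN2 encode ribophorins I and II, which belong to both forms of the complex and were named for their association with membrane-bound ribosomes. RPN2 (ENSG00000118705, chromosome 20 from 37178410 to 37241619, plus strand) was at 117, 119 and 121 FPKM in siCtrl libraries. In siNUF2 libraries it was at 72.3, 72.9 and 83.1 FPKM. The siCtrl values lay close together, and all siNUF2 values lay below them. The means were 119 ± 1.69 and 76.1 ± 6.08 FPKM (SD, n = 3 each), 63.9% of control, on 15100 to 26068 counts per library. The log2 fold change was -0.63 (SE 0.09, 95% interval -0.84 to -0.41, adjusted p = 0.0117 by edgeR), and 480 of the 11725 genes (4.09%) had a value this low or lower. The adjusted p was 0.0515 without siCtrl library 3 and 0.0623 without siNUF2 library 1, and under 0.05 in the other 4 of 6 fits, while the log2 fold change stayed between -0.69 and -0.58. RPN2 overlaps MROH8 on the opposite strand, and the strand setting of the counting is not given in the sources used here.

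RPN1 (ENSG00000163902, chromosome 3 from 128619969 to 128681075, minus strand) was at 63.6, 52.4 and 55.9 FPKM in siCtrl and at 56.6, 45.0 and 48.4 FPKM in siNUF2 libraries. The siNUF2 library was the lower within each number, by 0.17, 0.22 and 0.21 on the log2 scale, although the groups overlapped. The log2 fold change was -0.18 (95% interval -0.45 to 0.09, adjusted p = 0.489, and 0.102 with the replicate block). The ratio of RPN2 to RPN1 FPKM was 1.85, 2.28 and 2.16 in siCtrl and 1.28, 1.62 and 1.72 in siNUF2 libraries. On this ratio the groups did not overlap. It was not among the planned ratios, it carries the fall of RPN2 given above, and no test was run on it.

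DDOST, DAD1 and OST4 are further subunits of both forms. DDOST (ENSG00000244038, chromosome 1 from 20651767 to 20661544), a structural subunit, was at 123, 113 and 112 FPKM in siCtrl and at 131, 123 and 112 FPKM in siNUF2 libraries, with a log2 fold change of 0.09 (95% interval -0.12 to 0.31, adjusted p = 0.679). In the file it overlaps PINK1-AS on the same strand. DAD1 (ENSG00000129562, chromosome 14 from 22564907 to 22589220), named as a defender against cell death, was at 194, 207 and 209 FPKM in siCtrl and at 185, 217 and 191 FPKM in siNUF2 libraries. Its log2 fold change was -0.02 (95% interval -0.25 to 0.21, adjusted p = 0.946).

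OST4 (ENSG00000228474, chromosome 2 from 27070472 to 27071654) encodes a very small membrane subunit and was at 82.4, 73.5 and 85.3 FPKM in siCtrl and at 78.4, 80.9 and 79.5 FPKM in siNUF2 libraries. The siNUF2 values lay inside the range of the siCtrl values. Its log2 fold change was 0.01 (95% interval -0.22 to 0.23, adjusted p = 0.985), and its 3′ UTR holds the word TATGGAA. OST4 overlaps AGBL5 on the opposite strand.

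OSTC (ENSG00000198856, chromosome 4 from 108650585 to 108667820) encodes a subunit that links the STT3A form to the translocon. It was at 35.3, 33.3 and 36.4 FPKM in siCtrl and at 38.2, 39.0 and 36.4 FPKM in siNUF2 libraries. All siNUF2 values were above all siCtrl values, by a very small margin in library 3, and such a separation upward was found in 1234 of the 11725 genes (10.5%). The log2 fold change was 0.14 (95% interval -0.07 to 0.34) and did not pass (adjusted p = 0.496).

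**Figure D3:**
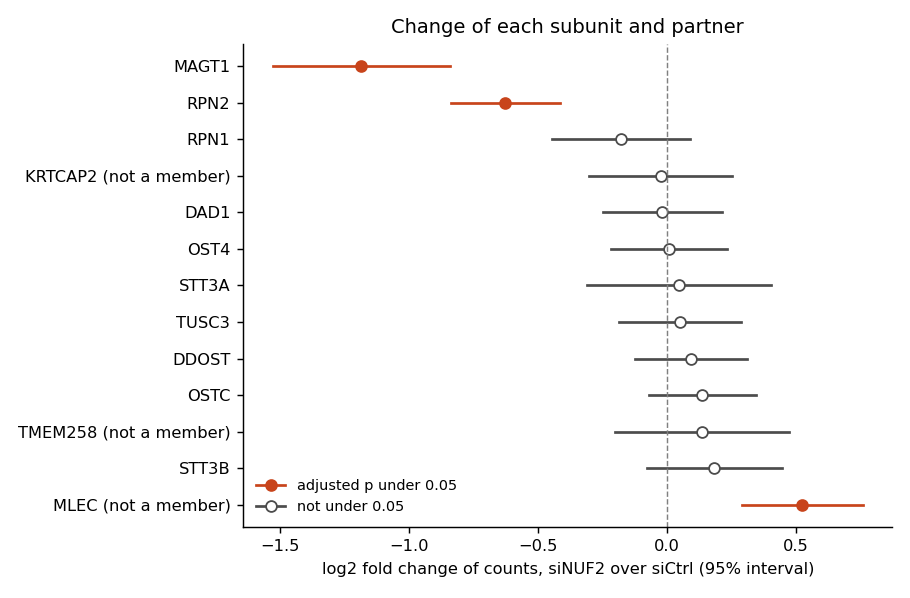
Log2 fold change of the counts (siNUF2 over siCtrl, edgeR without the block) of the 10 subunits and of 3 further genes, with 95% intervals. Filled points have an adjusted p under 0.05. The intervals of MAGT1 (-1.53 to -0.84) and RPN2 (-0.84 to -0.41) lie below 0, that of MLEC lies above 0, and the other 10 intervals include 0.

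Of the remaining subunits that were not among the 10, TMEM258 moved by 0.14 on the log2 scale (adjusted p = 0.703) and KRTCAP2, the partner of OSTC in the STT3A form, by -0.02 (adjusted p = 0.943). MLEC encodes malectin, an ER lectin that binds glucosylated glycans and is found with ribophorin I. Its level was 18.6, 16.6 and 19.6 FPKM in siCtrl and 27.0, 23.8 and 27.0 FPKM in siNUF2 libraries. All siNUF2 values were higher, at 142% of control, with a log2 fold change of 0.52 (SE 0.10, adjusted p = 0.0317 by edgeR). This call was lost with any of the 6 libraries left out (adjusted p from 0.0508 to 0.124).

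Ordered by mean FPKM in siCtrl cells, DAD1 (203) was followed by RPN2 (119), DDOST (116), OST4 (80.4), RPN1 (57.3), STT3B (38.6), OSTC (35), STT3A (24.8), TUSC3 (13.7) and MAGT1 (13.3). Neighbours in this order whose FPKM overlapped were RPN2 and DDOST, STT3B and OSTC, and TUSC3 and MAGT1. The oxidoreductase subunits were thus the least abundant of the 10 per length, and their sum, 27.0 FPKM, was below the 38.6 FPKM of STT3B. In siNUF2 cells RPN2 (76.1 FPKM) came after DDOST (122) and OST4 (79.6), with OST4 and RPN2 overlapping, and RPN1 (50), STT3B (43.2) and OSTC (37.9) overlapped from one to the next. There TUSC3 (14.0 FPKM) and MAGT1 (5.75 FPKM) no longer overlapped.

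The length behind an FPKM decides such an order. The length implied by the counts and FPKM was the same in the 6 libraries to within a coefficient of variation of 0.80% for MAGT1, so that the FPKM of a gene changed between libraries as its counts did. It was 1.29 to 2.02 times the canonical transcript of GENCODE release 44 for the 10 subunits. With levels per kilobase of the canonical transcript, RPN2 and DDOST changed places, STT3B and OSTC did also, and the other 6 ranks in siCtrl cells remained. For TMEM258 and KRTCAP2 the implied length was 6.21 and 8.49 times the canonical transcript, and their FPKM (16.7 and 10.7 in siCtrl cells) cannot be set beside those of the other subunits.

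Libraries with the same replicate number were compared next, since the numbers paired the libraries across all genes. The log2 ratio of siNUF2 to siCtrl FPKM in numbers 1, 2 and 3 was -1.0, -1.42 and -1.21 for MAGT1 and -0.70, -0.71 and -0.54 for RPN2. For TUSC3 it was 0.10, -0.04 and 0.04, and for STT3A it was 0.02, 0.03 and 0.03. STT3B had 0.22, 0.08 and 0.17. The ratios of STT3A thus differed far less between numbers than its FPKM did between libraries of a group. Library 2 was the lowest of its group for STT3A, STT3B and RPN1 in both siCtrl and siNUF2 cells, and library 1 was the lowest in both for TUSC3, RPN2 and DAD1.

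**Figure D4:**
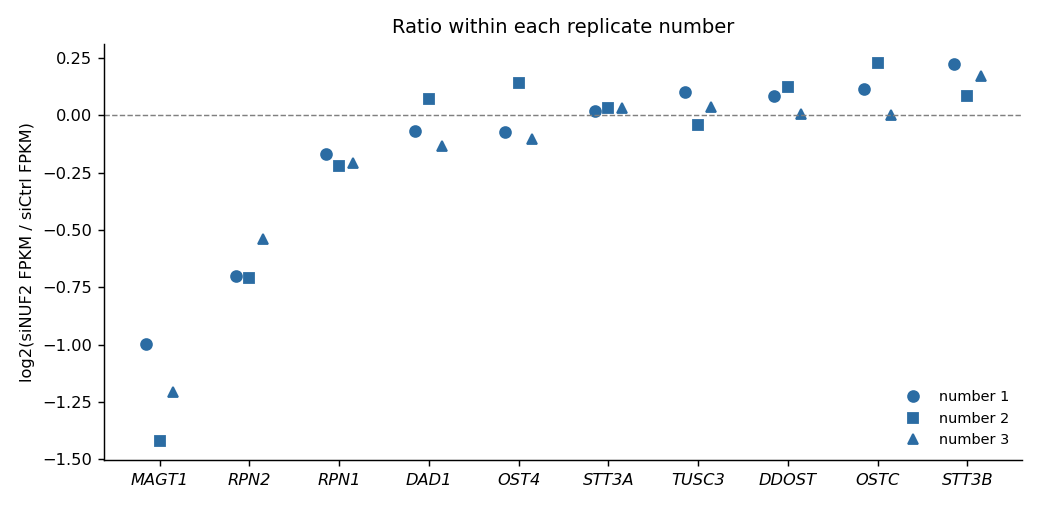
Log2 ratio of siNUF2 to siCtrl FPKM within each replicate number (circle 1, square 2, triangle 3) for the 10 subunits. MAGT1 (-1.42 to -1.0), RPN2 (-0.71 to -0.54) and RPN1 (-0.22 to -0.17) lie below 0 in all 3 numbers, and STT3A lies at 0.02 to 0.03.

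Over the 6 libraries the log2(FPKM + 1) of MAGT1 and RPN2 had a Pearson correlation of 0.978, and that of MAGT1 and TUSC3 of -0.15. These values describe 6 libraries in 2 groups, and the libraries of a group share their treatment. Among all genes tested, those most like MAGT1 on this measure were C2orf42 (r = 0.997), NEDD4 (0.996), NUP58 (0.996), LGMN (0.995) and ABHD13 (0.995). NEDD4, which encodes a HECT ubiquitin ligase, went from 14.6 to 6.16 FPKM with a log2 fold change of -1.22, and NUP58, a nucleoporin, from 5.49 to 2.21 FPKM with -1.29, both past the test. LGMN, the lysosomal protease legumain, had a log2 fold change of -0.47. C2orf42 (2.18 and 1.75 FPKM) did not pass the test (adjusted p = 0.411). Those most like TUSC3 were ATXN1 (0.987), TTC7A (0.986), VASP (0.986), VGLL3 (0.980) and ZNF623 (0.978). By edgeR 0 of these 5 passed the test without or with the block (3.99% and 14.5% of all genes tested). Both sets were picked by likeness over these same 6 libraries, so that their calls largely follow from the choice and are no separate result. VASP, an actin regulator, was at 17.8 FPKM in siCtrl and 18.2 FPKM in siNUF2 cells.

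The steps before and after glycan transfer were read from lists of genes. Of the 24 genes that build the lipid-linked oligosaccharide, 23 were tested (ALG10B was below the filter) and 0 passed, against 3.99% of all genes tested. By edgeR 2 had an unadjusted p under 0.05, DESeq2 called 0, and the median log2 fold change was 0.06. The most abundant, DPM1 and DPM2, subunits of the dolichol-phosphate mannose synthase, had log2 fold changes of -0.02 and 0.19. With the replicate block 1 of the 23 genes passed (4.35%, a lower share than the 14.5% of all genes tested). It was NUS1, a subunit of the enzyme that makes the dolichol chain, at -0.36 (adjusted p = 0.0242).

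Among 14 genes of glycan trimming and glycoprotein quality control, 1 was higher and 2 were lower (21.4% past the test, against 3.99% of all genes tested), with a median log2 fold change of 0.04. GANAB encodes the catalytic subunit of glucosidase II, which trims glucose from the transferred glycan. It was at 42.2, 35.5 and 37.0 FPKM in siCtrl and at 107, 109 and 96.7 FPKM in siNUF2 libraries, 272% of control. Its log2 fold change was 1.46 (SE 0.10, adjusted p = 0.0010), the only rise past the test in this list without the block.

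The falls were in the following step and in degradation. PDIA3, the disulfide isomerase that works with calnexin and calreticulin, was at 114, 111 and 137 FPKM in siCtrl and at 60.7, 60.9 and 74.5 FPKM in siNUF2 libraries. It was at 54.2% of control, with a log2 fold change of -0.86 (adjusted p = 0.0117, and 0.0623 without siNUF2 library 1). EDEM3, a mannosidase that marks misfolded glycoproteins for degradation, was at 3.37, 3.13 and 3.06 FPKM in siCtrl and at 1.49, 1.21 and 1.62 FPKM in siNUF2 libraries. It was at 45.2% of control, with a log2 fold change of -1.13 (adjusted p = 0.0084).

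With the replicate block, which called 14.5% of all genes tested, 5 of the 14 genes passed, the added ones being CALR, the chaperone calreticulin (higher, adjusted p = 0.0260), and EDEM1, a relative of EDEM3 (lower, adjusted p = 0.00861). CALR was the most abundant gene of the list and did not pass without the block (268 and 331 FPKM, log2 fold change 0.33, adjusted p = 0.321). The word TATGGAA stood once in the 3′ UTR of PDIA3 and of EDEM3 and not in that of GANAB. The windows of PDIA3, EDEM3 and SSR3, which passed the test as lower, are shown for comparison with that of MAGT1, with the word in capitals. The word also stood in listed genes that did not pass without the block, such as SSR1, DNAJC10 and TMX4, whose windows are not shown. The word of SEC62 lies beyond the end of the gene as the file gives it, and its window is not shown.
PDIA3, 3′ UTR in exon 12 of 12, chr15:43771380-43771409, plus strand: gctgcactgttTATGGAAataccaggacca
EDEM3, 3′ UTR in exon 20 of 20, chr1:184692219-184692248, minus strand: tatatacagtaTATGGAAggatagatatag
SSR3, 3′ UTR in exon 5 of 5, chr3:156543134-156543163, minus strand: ggcctgtggtaTATGGAAaagtagcagggt

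At the translocon, beside which the STT3A form sits, 0 of 12 genes were higher and 2 were lower (1.53% and 2.46% of all genes tested), with a median log2 fold change of -0.16. SSR3, a subunit of the translocon-associated protein complex that accompanies the OST, was at 117, 106 and 116 FPKM in siCtrl and at 83.3, 74.3 and 87.9 FPKM in siNUF2 libraries. All siNUF2 values were lower, with a log2 fold change of -0.44 (adjusted p = 0.0457). SEC62, which takes part in import after translation, was at 14.9 ± 1.81 FPKM in siCtrl and 10.1 ± 0.601 FPKM in siNUF2 cells (SD, n = 3 each), with a log2 fold change of -0.54 (adjusted p = 0.0403). Both calls were lost with any of the 6 libraries left out (adjusted p from 0.0719 to 0.158 for SSR3 and from 0.0737 to 0.152 for SEC62). SEC61A1, the pore subunit, was at 0.19 on the log2 scale (adjusted p = 0.563), and with the replicate block (14.5% of all genes) 4 of 12 genes passed, TRAM1 and TRAM2 being added, both lower.

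Of 16 further ER thiol oxidoreductases, the class of enzyme to which MAGT1 and TUSC3 belong, 1 was higher and 0 were lower, or 6.25% past the test against 3.99% of all genes tested. Of the 16, 15 had a log2 fold change above 0, as did 51.1% of all genes tested, and their median was 0.15. TXNDC12 (ERp18) was at 26.8, 28.2 and 23.3 FPKM in siCtrl and at 38.9, 41.8 and 40.3 FPKM in siNUF2 libraries. Its log2 fold change was 0.65 (adjusted p = 0.0149), and without siCtrl library 1, siCtrl library 3 or siNUF2 library 1 the call was lost, with an adjusted p of up to 0.0598. P4HB and PDIA6, the most abundant disulfide isomerases of the list, had log2 fold changes of 0.19 (adjusted p = 0.393) and 0.11 (adjusted p = 0.592). With the replicate block (14.5% of all genes) 3 of 16 passed, TMX4 and the oxidase ERO1A being added, both higher.

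**Figure D5:**
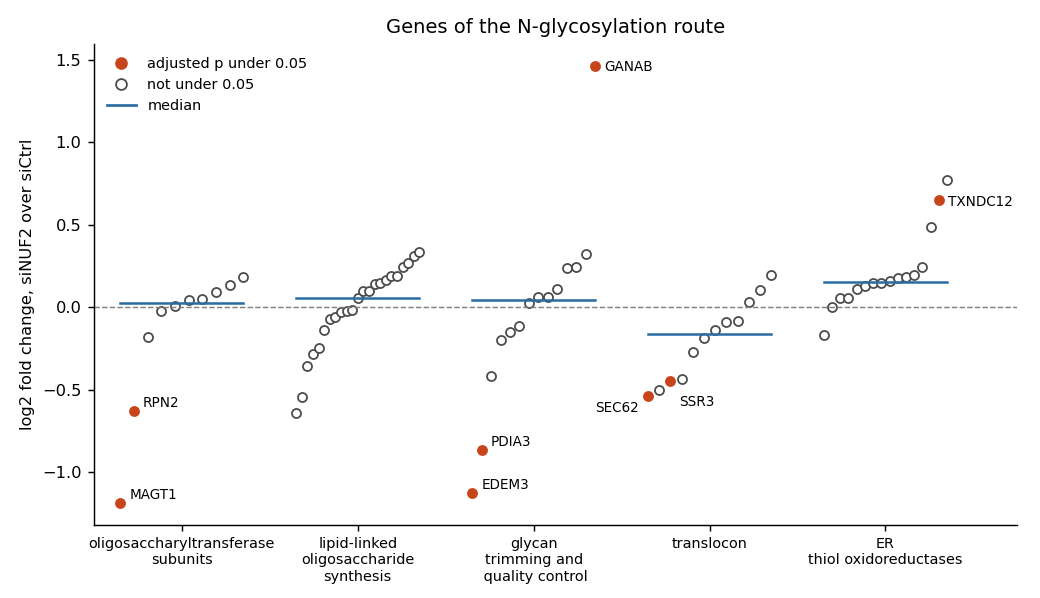
Log2 fold change (siNUF2 over siCtrl) of each gene tested in 5 lists of the N-glycosylation route, ordered within a list, with a line at the median. Filled orange points have an adjusted p under 0.05 and are named. MAGT1 (-1.18) and EDEM3 (-1.13) are the lowest and GANAB (1.46) is the highest, and the medians run from -0.16 in the translocon list to 0.15 in the ER thiol oxidoreductases.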

How the data were processed

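RNA-seq of 8505C cells covered 3 siCtrl and 3 siNUF2 libraries at 24 h, grouped by the sample labels. Poly(A) RNA was sequenced in read pairs of 150 bases. Per the submitters' processing notes and the study's methods, fastp served for quality control, HISAT2 for alignment (GRCh38) and StringTie for quantification. The authors deposited FPKM and whole-number counts for 32985 genes. Versions, annotation release, counting tool and strand setting are not given in the sources used here.

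The 11725 genes whose mean FPKM reached 1 were tested on the deposited counts with edgeR 4.0.16 (TMM, quasi-likelihood F-test, Benjamini-Hochberg) in R 4.3.3, on the groups alone as in the study's methods, which name no block. Fold changes are of counts and levels are FPKM. Ratios and sums of FPKM were tested with exact permutation tests, two-sided, in scipy 1.17.1. Alternatives were the size factors of DESeq2 1.42.0 in edgeR, DESeq2, limma 3.58.1 on log2(FPKM + 1) and log2(FPKM + 0.1), no filter, a filter at 5 FPKM, a pseudocount of 1 FPKM in the ratios, the replicate number as a block, and each library left out. The total count was 61257859 to 69755291, and no library repeated another, since chi-square over its degrees of freedom was 90.1 to 132 between replicates. The common dispersion was 0.0452, and 0.0218 with the block.

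Replicate numbers come from the labels. Deviations from the group means correlated at 0.419 to 0.539 between libraries of the same number and at -0.316 to -0.126 otherwise, so the numbers pair the libraries, although the sources do not say what a number shares. In simulated counts for siNUF2 against siCtrl over 11725 genes, edgeR recovered 135 of 200 changes of 2-fold (67.5%) with 13 false calls. The simulated libraries carried no effect of a replicate number, unlike the real ones, so these rates may not hold for the real libraries.

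The members and lists were chosen with earlier results of these data known, among them the fall of MAGT1. Genes named are the 10 subunits, NUF2, TMEM258, KRTCAP2 and MLEC, in each list the genes past the threshold and the 2 with the highest mean FPKM, and the 5 genes most correlated with MAGT1 and with TUSC3. Genes that passed with the block alone were named after their values were seen. Marker gene TSHR was not analysed here. The 3′ UTR of a gene is the longest of at least 50 bases among its protein-coding transcripts in GENCODE release 44.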

Additional observations from a re-analysis of the deposited data

How the results depend on the processing

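The replicate block changed no call among the 10 subunits, with 2 past the threshold in either fit. Over all genes the count past an adjusted p of 0.05 was 468. It was 972 by DESeq2, 188 without the filter, 1705 with the replicate block, and 124 to 257 with each library left out. Of the subunits, 1 to 2 passed with a library left out, the call of RPN2 being the one lost (log2 fold change -0.69 to -0.58). The single call among TMEM258, KRTCAP2 and MLEC went to 0 without the filter and to 0 in each of the 6 fits with a library left out. The replicate block called 14.5% of all genes tested. With it, 1 gene of lipid-linked oligosaccharide synthesis, 5 of glycan trimming, 4 of the translocon and 3 of the ER thiol oxidoreductases passed. The translocon count was 1 with limma at either pseudocount, 0 without the filter and 0 with any library left out. DESeq2 called 3 ER thiol oxidoreductases, and 0 to 1 passed with a library left out. Removing the filter changes which genes are tested, and leaving out a library reduces the samples. The cause was not tested for the other settings. No named gene that passed the test changed direction. Among subunits that did not pass, the log2 fold change crossed 0 with a library left out for TUSC3 (-0.02 to 0.11), STT3A (-0.08 to 0.17), OST4 (-0.06 to 0.05), DAD1 (-0.10 to 0.03) and KRTCAP2 (-0.09 to 0.07), and for OST4 also with limma (-0.01) and with the filter at 5 FPKM (-0.01). The log2 fold changes of MAGT1, between -1.30 and -1.07, passed under every setting named above. Precision depends on the pairing too, since the SE of STT3A was 0.16 without the block and 0.06 with it.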

Other observations

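The word TATGGAA was also counted over the 75 genes tested in the 5 lists of the route, the 10 subunits included, and this count was chosen after the data were seen. An annotated 3′ UTR held it in 14 of the 75, beside 16.1% of all genes tested that had a 3′ UTR. It was held by 5 of the 6 genes that were lower, MAGT1, PDIA3, EDEM3, SSR3 and SEC62. The 3′ UTRs of these 5 genes were 2061 to 5310 bases long. RPN2, the other lower gene, had a 3′ UTR of 304 bases, which held only the 6-base core, at 2 positions. A longer 3′ UTR has more positions for a match, and these counts were not adjusted for length. Of the 2 genes that were higher, GANAB (3′ UTR of 989 bases) and TXNDC12 (802 bases), 0 held the word. Over all genes tested that had a 3′ UTR, 58.8% of the lower and 10.3% of the higher genes held it. The other 9 genes that held it did not pass the test, with log2 fold changes from -0.35 in NUS1 to 0.49 in TMX4. TUSC3, OST4, ALG13, ALG14, SSR1, DNAJC10 and ERO1B were among them. In SEC62 the word lies beyond the end of the gene as the file gives it. The part of the word in these levels was not tested.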
